A study of Mus musculus with 13 samples.

Results

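Dinner skipping (DSF) was set against the control group (con) in epithelial cells of the mouse jejunum, the middle stretch of the small intestine, with 2 DSF and 3 con libraries of the 13 in the series and all 21868 genes of the count table. DSF mice could eat from ZT12 to ZT20 for 2 weeks. ZT is zeitgeber time, counted in hours from lights on, and in the usual light cycle ZT12 is lights off, the start of the active phase of mice. The labels name con as control, with no feeding hours in the sources used here. Lunch skipping (LSF, 3 libraries, with food at ZT12 to ZT16 and again at ZT20 to ZT24) and breakfast skipping (BSF, 2 libraries, with food at ZT16 to ZT24) serve below to show where DSF differs from another restricted pattern. A further group with 3 libraries, BSF_C, is labelled as breakfast skipping together with control, with no more said. Mice of the feeding experiment shared environment and cage, per the series' design text. Strain, sex, age, sampling hour and the number of mice behind a library are likewise not stated. The sort had kept cells with EpCAM and without CD45, CD3, CD11b or B220. The labels call libraries of a group biological replicates but do not say whether each came from a separate mouse, so the p-values here reflect the spread among libraries alone, which may be technical.

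The jejunal epithelium is a single layer that is renewed from stem cells in crypts and matures along villi, where enterocytes take up fat, sugars, amino acids and sterols. Food arriving in the lumen and the circadian clock both set the daily rhythm of many of these genes. The clock is a feedback loop in which CLOCK and BMAL1 (Arntl) drive the period and cryptochrome genes, whose products repress them, with nuclear receptors such as REV-ERB alpha forming a further loop. Meal times are a strong time cue for the clocks of gut and liver.

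The DSF libraries held 7463941 and 7339563 counts, against 5202146, 5080795 and 4851239 in con. At least 1 count was found for 16426 and 16348 genes in DSF, and for 14957, 14923 and 14688 genes in con. Mitochondrially encoded genes took 9.94% and 10.4% of counts in DSF, against 10.9% to 12.1% in con. On the first principal component con lay apart from the 4 other groups. That component carried 77.4% of the variance, and the labels give no batch, so feeding pattern and a batch holding only con cannot be told apart. Levels below are CPM, counts in 1000000 of a library total scaled by trimmed means. They serve to compare groups for 1 gene, not genes with each other. Log2 fold changes are DSF over con unless another group is named, with the standard error after ±, and adjusted p-values come from edgeR's quasi-likelihood test over all genes tested.

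The sorted cells carried their epithelial markers in both groups, but also transcripts of other tissues that differed between them. Epcam, the antigen of the sort, had 384 and 365 CPM in DSF, against 211, 185 and 183 CPM in con (log2 fold change 0.96 ± 0.06, adjusted p = 1.08e-19). Of 8 epithelial markers 5 were higher and 2 lower in DSF, where of all 14300 genes tested 36.6% were higher and 31.1% lower. Cdh1, the E-cadherin of epithelial junctions, fell to 853 and 846 CPM in DSF, against 2012, 1893 and 2151 CPM in con. The summed level of the list was 7637 to 7870.0 CPM in DSF and 6746 to 7592 CPM in con. All 6 enterocyte markers were higher in DSF, with sums given beside the plot of marker lists. Ptprc, which encodes CD45 and marks the leukocytes the sort was to remove, had 16.5 and 19.1 CPM in DSF, against 0, 0.416 and 0 CPM in con, where 2 counts lie behind the con values and the ratio was 125 (95% interval 34.2 to 1034). All 19 markers of skin keratinocytes were lower in DSF, with sums of 335 to 354 CPM in DSF and 1515 to 1730.0 CPM in con. Sfn, an adaptor protein that gut epithelium also makes, held most of the DSF sum with 348 and 328 CPM in DSF, against 734, 736 and 878 CPM in con. The epidermal keratin gene Krt14 and the calcium-binding gene Calm4 were among 9 of the 19 without a count in DSF. Calm4 had 203, 255 and 224 CPM in con and was at least 1157-fold lower in DSF against a floor of 3 counts over the group. Of 12 tested heart muscle markers 11 were higher in DSF, with a sum of 591 CPM in both DSF libraries and 118 to 131 CPM in con. Myh6, a cardiac myosin heavy chain, had 185 and 174 CPM in DSF and no count in con, at least 837-fold higher in DSF. Markers of lymphocytes within the epithelium were higher for 8 of 9 tested genes, with sums of 341 to 361 CPM in DSF and 85.4 to 92.6 CPM in con. Gzmb, a granzyme of killer cells, had 90.9 and 85.0 CPM in DSF, against 0.619, 0 and 0.460 CPM in con. Itgae, an integrin that holds such lymphocytes in the epithelium, was the member that fell, to 43.5 and 43.5 CPM in DSF, against 90.0, 84.4 and 83.1 CPM in con. It held nearly all of the con sum of the lymphocyte list. Brain markers were higher for 10 of 12 genes and lower for 1, although their sum was 188 to 195 CPM in DSF and 235 to 265 CPM in con. Fibroblast (9 of 10), melanocyte (5 of 6) and kidney tubule (8 of 8) markers were higher too, with none lower. The part of such transcripts in the results below was not tested, and in bulk libraries fewer cells of a type and less RNA per cell cannot be told apart.

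**Figure D1:**
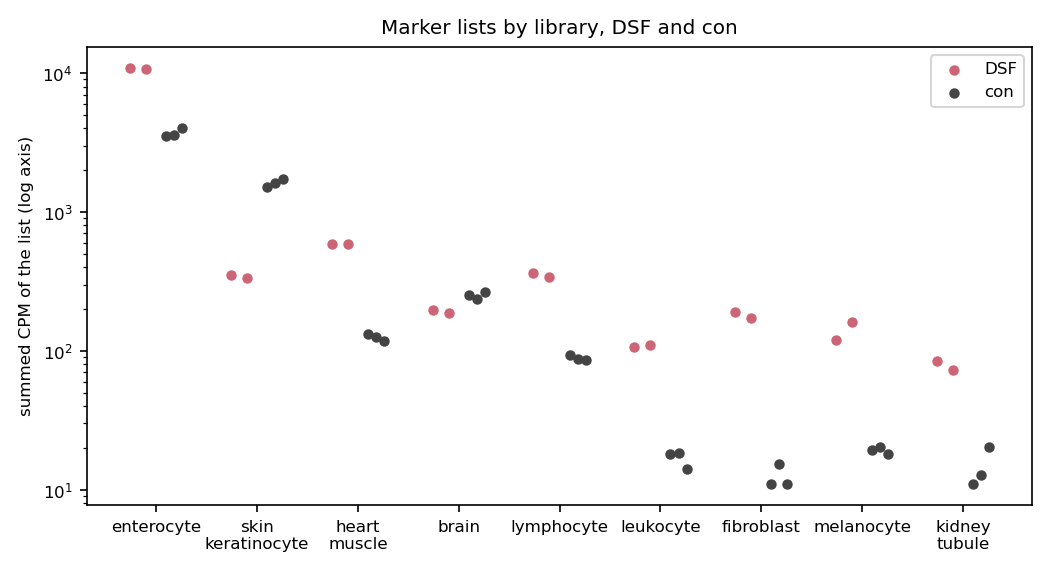
Summed CPM of marker lists (log axis) in each DSF library (red, left of each pair) and each con library (grey). The DSF libraries lie above con for heart muscle, lymphocyte, leukocyte, fibroblast, melanocyte and kidney tubule markers and below con for skin keratinocyte and brain markers, and the enterocyte sum is 10660.0 to 10920.0 CPM in DSF and 3522 to 4021 CPM in con.

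Most tested genes differed between DSF and con. Of the 14300 genes, 5227 (36.6%) were higher and 4450 (31.1%) lower in DSF, and 2615 (18.3%) were at least 2-fold higher and 1129 (7.90%) at least 2-fold lower. The DSF and con libraries did not overlap for 5747 genes above con (40.2%) and 4837 genes below it (33.8%). Over all tested genes the log2 fold change had a median of 0.10, or 0.26 with library totals alone, so that scaling by totals would add 0.16 to the changes given here. All counts of list members below are read against these shares. The 10 largest rises among genes with no overlap and at least 20 CPM in the higher group, marker lists left out, were led by muscle genes: Mb, the oxygen-binding myoglobin, had 95 and 91.5 CPM in DSF and no count in con, and Hspb7, a heat shock protein of heart, had 36.1 and 36.5 CPM in DSF and no count in con. Cep85l rose to 186 and 187 CPM in DSF, against 0.619, 0 and 0 CPM in con, with 3 counts behind the con values and a ratio of 869.7 (95% interval 297 to 4220.0). It spans chr10:53273443-53379947 on the minus strand and holds the cardiac gene Pln (chr10:53337667-53345987) on the plus strand, and counts of the pair cannot be told apart without a strand setting, which was not given. Lpl, the lipase that frees fatty acids from lipoproteins and is abundant in heart, had 71.0 and 72.4 CPM in DSF, against 0.413, 0 and 0 CPM in con and a ratio of 502 (95% interval 139 to 4149). Spp1, the secreted phosphoprotein osteopontin, had 98.7 and 71.6 CPM in DSF, against 0, 0.623 and 0 CPM in con and a ratio of 398 (95% interval 136 to 1931). The 10 largest falls were led by genes of cornified epithelium. Hrnr and Rptn, structural proteins of the epidermal barrier, had no count in DSF and were at least 429.5-fold and 299.7-fold lower, and the wound keratins Krt6b and Krt16 and the epidermal protease Klk7 fell with them. Cyp3a11, a gene of gut and liver described below, was also among the 10 largest rises.

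**Figure D2:**
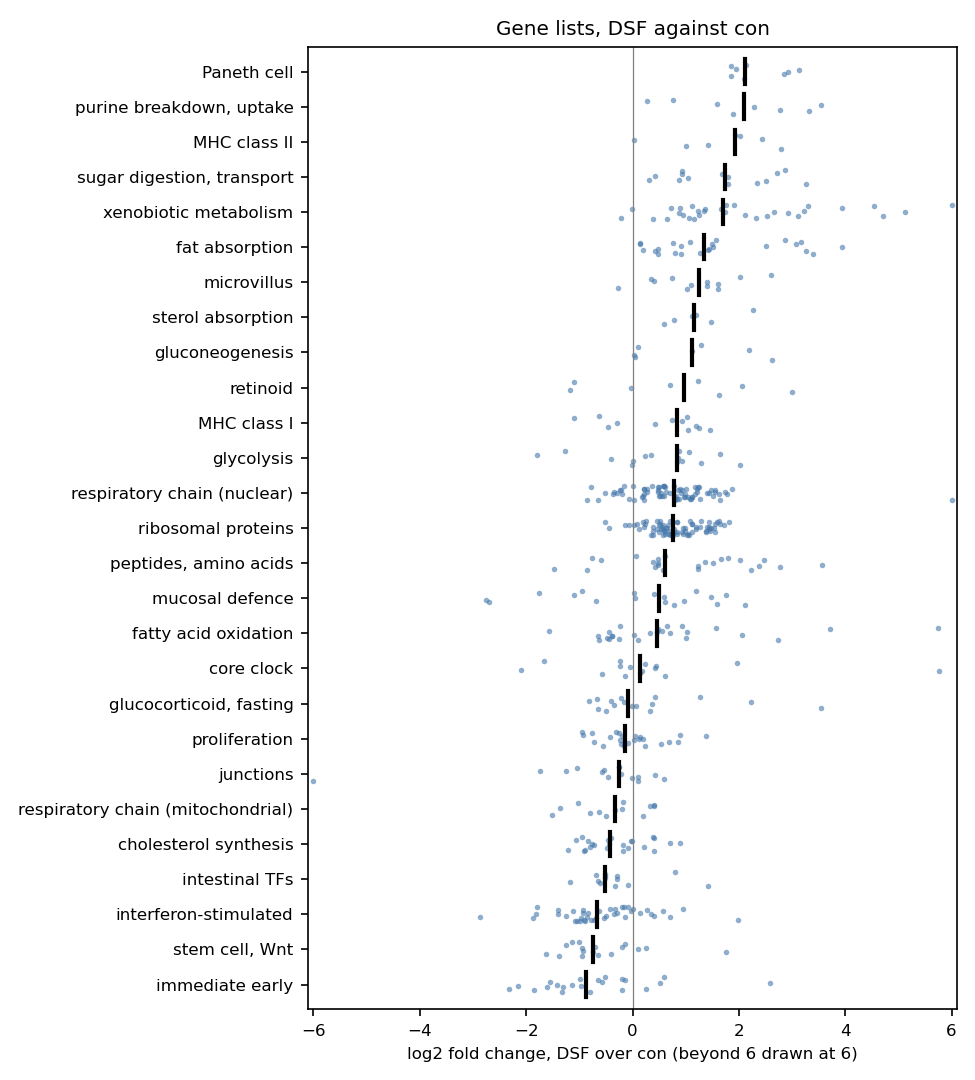
Log2 fold change of DSF over con (horizontal axis) for the tested members of 27 gene lists, one point a gene, with the list's median as a black bar. Members without a count in a group are not drawn but are in the median. Medians run from 2.11 for Paneth cell genes to -0.88 for immediate early genes.

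Genes of fat absorption were higher in DSF. Of 24 tested members, 22 rose and none fell (median log2 fold change 1.34). Apoa4, an apolipoprotein of the chylomicrons that carry dietary fat, had 9467 and 9278 CPM in DSF, against 937, 909.7 and 1088 CPM in con, a 9.59-fold difference (log2 fold change 3.26 ± 0.05, adjusted p = 9.84e-48). Apoa1, the main protein of high density lipoprotein, lies beside it (chr9:46228580-46230466 and chr9:46240696-46243459, GRCm38) and had 5440.3 and 5335 CPM in DSF, against 880.4, 906 and 1062 CPM in con (log2 fold change 2.51 ± 0.05, adjusted p = 3.83e-42). Between them sits Apoc3 (chr9:46232933-46235636), an inhibitor of lipoprotein lipase, which rose to 28.2 and 22.3 CPM in DSF, against 1.24, 2.29 and 1.38 CPM in con (log2 fold change 3.93 ± 0.23, adjusted p = 8.27e-22). All 3 neighbours rose, by 9.59-fold, 5.68-fold and 15.2-fold. Apob, the structural protein of the chylomicron, had 2064 and 2019.7 CPM in DSF, against 679, 757 and 629.6 CPM in con (log2 fold change 1.57 ± 0.05, adjusted p = 2.35e-32). Mttp, which loads lipid onto it, had 1376 and 1377 CPM in DSF, against 1228, 1149 and 1233 CPM in con (log2 fold change 0.19 ± 0.05, adjusted p = 5.30e-04). The fatty acid binding proteins Fabp2 and Fabp1 had log2 fold changes of 2.86 ± 0.10 (adjusted p = 5.89e-32) and 1.42 ± 0.11 (adjusted p = 4.17e-16). Dgat1, which makes triglyceride, had 807 and 803 CPM in DSF, against 285, 266 and 296 CPM in con (log2 fold change 1.51 ± 0.05, adjusted p = 7.88e-31). Cd36, a fatty acid carrier that heart muscle also makes, had 19.8 and 22.8 CPM in DSF, against 1.86, 1.87 and 2.30 CPM in con. The members that did not pass were Gpat3 (0.15 ± 0.08, adjusted p = 0.0941) and Plin3 (0.15 ± 0.07, adjusted p = 0.0558). Both passed with library totals alone, at 0.31 for Gpat3 (adjusted p = 0.000414) and 0.31 for Plin3 (adjusted p = 4.66e-05), and both without con replicate 3 (adjusted p = 0.0206 for Gpat3 and 0.00343 for Plin3). Plin3 also passed without a filter, with only the groups compared, with the replicate block and without DSF library S3 (adjusted p = 0.0287 to 0.0471), and was at 0.06 without DSF library S2.

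Genes of sterol absorption, a list that includes pumps working against uptake, were higher in all 6 tested members. Cholesterol synthesis genes were mostly lower. Npc1l1, the intestinal cholesterol importer, had 631 and 627 CPM in DSF, against 419, 393 and 445 CPM in con (log2 fold change 0.59 ± 0.06, adjusted p = 9.20e-14). The paired transporter subunits Abcg5 and Abcg8, which pump plant sterols back into the lumen, had log2 fold changes of 1.20 ± 0.08 (adjusted p = 1.62e-19) and 0.77 ± 0.07 (adjusted p = 2.98e-14). Soat2, which esterifies absorbed cholesterol, had 131 and 143 CPM in DSF, against 63.3, 65.7 and 59.4 CPM in con. Of 24 cholesterol synthesis and uptake genes, 15 fell and 5 rose (median -0.43). Lss and Sqle, enzymes that form the sterol ring, had log2 fold changes of -1.06 ± 0.09 (adjusted p = 4.61e-15) and -0.90 ± 0.09 (adjusted p = 2.85e-13). Srebf2, the transcription factor of the pathway, fell to 153 and 144 CPM in DSF, against 275, 259 and 309 CPM in con.

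All 14 tested genes of sugar digestion and transport rose (median log2 fold change 1.74). Lct, the brush border lactase, had 1331 and 1317 CPM in DSF, against 128, 129 and 160.2 CPM in con, 9.55-fold more (log2 fold change 3.25 ± 0.06, adjusted p = 1.37e-43). Treh, which splits trehalose, had 155 and 144 CPM in DSF, against 22.7, 18.1 and 20.9 CPM in con (log2 fold change 2.86 ± 0.09, adjusted p = 3.20e-33). Sis, sucrase-isomaltase, had 418 and 427 CPM in DSF, against 131, 137 and 124 CPM in con (log2 fold change 1.69 ± 0.06, adjusted p = 2.43e-30). The basolateral glucose carrier Slc2a2 had a log2 fold change of 2.50 ± 0.07 (adjusted p = 1.20e-35) and the luminal sodium-glucose carrier Slc5a1 one of 0.43 ± 0.05 (adjusted p = 7.79e-10). Of 7 gluconeogenesis genes, 4 rose and none fell. G6pc, the phosphatase that frees glucose, had 109 and 114 CPM in DSF, against 15.5, 18.5 and 20.5 CPM in con (log2 fold change 2.63 ± 0.10, adjusted p = 6.40e-30). Pck1, the cytosolic carboxykinase, had 71.1 and 69.5 CPM in DSF, against 16.7, 14.3 and 15.0 CPM in con (log2 fold change 2.19 ± 0.10, adjusted p = 1.87e-25). Pck2, the mitochondrial enzyme, had 49.8 and 45.9 CPM in DSF, against 48.5, 45.9 and 45.6 CPM in con (log2 fold change 0.04 ± 0.10, adjusted p = 0.759).

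Peptidases and amino acid carriers rose in 19 of 25 tested members and fell in 5. Mme, the endopeptidase neprilysin, had 339.5 and 328 CPM in DSF, against 46.4, 60.5 and 39.8 CPM in con (log2 fold change 2.76 ± 0.08, adjusted p = 1.86e-35). Ace, a peptidase of the brush border, had a log2 fold change of 2.47 ± 0.07 (adjusted p = 3.97e-36). Slc6a19, the main carrier of neutral amino acids, had 303 and 318 CPM in DSF, against 75.7, 71.9 and 82.0 CPM in con (log2 fold change 2.02 ± 0.07, adjusted p = 2.87e-32). The falls were in carriers that many other cells also use: Slc7a8, a basolateral exchanger, had 354 and 381 CPM in DSF, against 598, 594 and 684 CPM in con (log2 fold change -0.77 ± 0.06, adjusted p = 1.38e-16), and Slc1a1, Slc1a5 and Slc38a2 fell by 1.47, 0.85 and 0.59 on the log2 scale. The fifth was Slc6a14, a carrier of many amino acids, with no count in DSF against 2.68, 2.7 and 4.6 CPM in con, a call that DESeq2's Wald test did not make (adjusted p = 0.201). Enpep, aminopeptidase A, had 481 and 491 CPM in DSF, against 489, 435 and 478 CPM in con (log2 fold change 0.06 ± 0.06, adjusted p = 0.367). Enpep passed, as higher in DSF, with library totals alone (log2 fold change 0.22, adjusted p = 0.000133).

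Xenobiotic metabolism rose in 30 of 32 tested members, with 1 lower (median 1.70). Cyp3a11, a drug-oxidizing cytochrome P450, had 188 and 167 CPM in DSF, against 0.619, 0.208 and 0.921 CPM in con, 302-fold more on 8 con counts (log2 fold change 8.24 ± 0.17, adjusted p = 3.83e-42). Its neighbour Cyp3a25 had 218 and 238 CPM in DSF, against 10.9, 9.14 and 5.76 CPM in con (log2 fold change 4.71 ± 0.12, adjusted p = 3.39e-37). Cyp2b10, a textbook target of the constitutive androstane receptor, had 102 and 101 CPM in DSF, against 4.75, 4.57 and 3.68 CPM in con (log2 fold change 4.53 ± 0.13, adjusted p = 2.03e-35). The receptor itself, Nr1i3, had 113 and 120.4 CPM in DSF, against 115, 114 and 123 CPM in con (log2 fold change -0.01 ± 0.07, adjusted p = 0.954). Gstm3, a glutathione transferase, had 619.6 and 618 CPM in DSF, against 64.0, 59.6 and 65.1 CPM in con (log2 fold change 3.30 ± 0.07, adjusted p = 5.38e-43). Ces2a, a carboxylesterase, had 176 and 168 CPM in DSF, against 19.6, 16.2 and 19.1 CPM in con (log2 fold change 3.23 ± 0.09, adjusted p = 1.52e-35). The Cyp3a, Gstm and Ces2 genes have close paralogs, so their counts are uncertain where reads map to several copies. Mgst1, a membrane-bound transferase, was the member that fell, to 110.2 and 107 CPM in DSF, against 128, 113 and 140.4 CPM in con, a call that was lost without con replicate 3 (adjusted p = 0.0609) or DSF library S3 (adjusted p = 0.0634), with only the groups compared (adjusted p = 0.0725) and with library totals alone (adjusted p = 0.439). With library totals alone 31 members rose and 0 fell, and Nr1i3 passed as higher in DSF (log2 fold change 0.15, adjusted p = 0.0395).

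**Figure D3:**
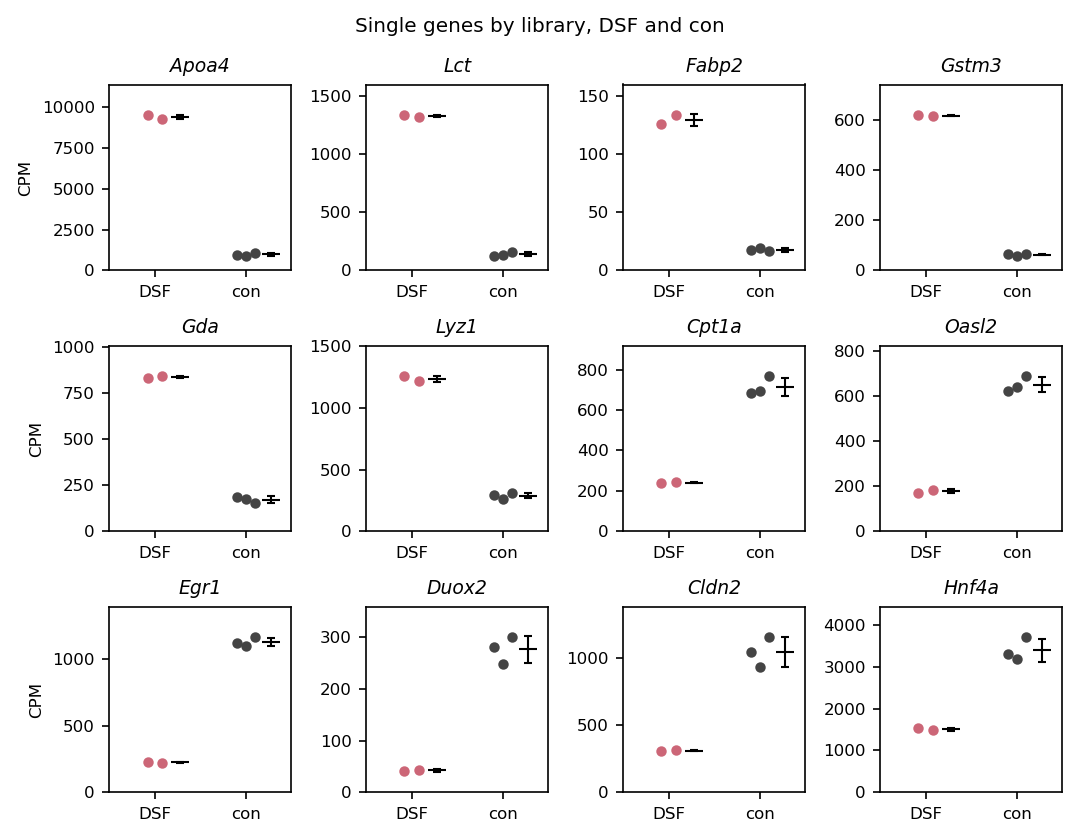
CPM of 12 genes in each DSF library (red, left) and each con library (grey, right), with the mean and SD as a bar beside the points (n = 2 and 3). The 12 genes were picked as examples, and the groups do not overlap for any of them. The first 6 genes are higher in DSF and the last 6 lower. Of all tested genes 40.2% lie above con and 33.8% below it without overlap.

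Other features of the mature enterocyte were higher as well. Microvillus genes rose in 11 of 12 members and fell in 1. Vil1, the actin-bundling villin, had 844 and 820.2 CPM in DSF, against 399.7, 397 and 423 CPM in con (log2 fold change 1.03 ± 0.05, adjusted p = 4.63e-24). Espn, another bundler, had 135 and 146 CPM in DSF, against 22.5, 24.5 and 22.6 CPM in con (log2 fold change 2.59 ± 0.09, adjusted p = 4.60e-32). Cdhr2, a cadherin that links microvilli, had 459 and 447 CPM in DSF, against 111, 103 and 119.7 CPM in con (log2 fold change 2.03 ± 0.06, adjusted p = 1.15e-33). Alpi, the intestinal alkaline phosphatase, had 1851 and 1789 CPM in DSF, against 542, 605 and 645 CPM in con, and its relative Akp3 had 291 and 301 CPM in DSF, against 33.0, 39.7 and 43.5 CPM in con (log2 fold change 2.94 ± 0.08, adjusted p = 2.51e-37).

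Purine breakdown and nucleoside uptake rose in 7 of 8 genes. Gda, guanine deaminase, had 831 and 839 CPM in DSF, against 189, 173 and 153 CPM in con (log2 fold change 2.28 ± 0.06, adjusted p = 3.17e-37). Xdh, which makes uric acid, had 257 and 260.5 CPM in DSF, against 67.3, 76.5 and 65.1 CPM in con (log2 fold change 1.89 ± 0.08, adjusted p = 1.79e-28). Slc28a1, a nucleoside carrier, had 78.4 and 74.2 CPM in DSF, against 7.02, 4.16 and 8.52 CPM in con (log2 fold change 3.55 ± 0.14, adjusted p = 3.07e-29). Of 8 vitamin A genes 5 rose and 2 fell. Aldh1a1, which makes retinoic acid, had 156 and 151 CPM in DSF, against 19.4, 18.3 and 19.6 CPM in con (log2 fold change 3.01 ± 0.09, adjusted p = 4.97e-35). Isx, the homeobox repressor of carotene uptake, fell to 199 and 208 CPM in DSF, against 406, 414 and 481 CPM in con (log2 fold change -1.09 ± 0.07, adjusted p = 3.82e-21). In the zinc list 5 of 6 rose, among them the luminal zinc importer Slc39a4 with 209.9 and 196 CPM in DSF, against 101, 90.0 and 102 CPM in con. Ferritin was higher, with log2 fold changes of 1.90 ± 0.05 for the heavy chain Fth1 (adjusted p = 1.20e-35) and 1.45 ± 0.06 for the light chain Ftl1 (adjusted p = 9.63e-30), while ferroportin, Slc40a1, which exports iron, fell to 35 and 29.4 CPM in DSF, against 63.1, 54.2 and 55.7 CPM in con. Of 6 vitamin D and calcium genes 3 rose and 2 fell (median 1.57). The vitamin D receptor Vdr fell to 771 and 774 CPM in DSF, against 1211, 1202 and 1358 CPM in con (log2 fold change -0.70 ± 0.05, adjusted p = 9.64e-17). Of 4 tested bile acid genes 1 rose, and 3 with library totals alone.

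Fatty acid oxidation was mixed, with 16 of 28 members higher and 9 lower. Cpt1a, the gate of mitochondrial fatty acid import in liver and gut, fell to 241 and 242 CPM in DSF, against 684, 695 and 766 CPM in con (log2 fold change -1.57 ± 0.06, adjusted p = 3.67e-29). Its partner Cpt2 fell to 307 and 272 CPM in DSF, against 356, 354 and 425 CPM in con (log2 fold change -0.38 ± 0.07, adjusted p = 2.02e-06). Acadvl, the first dehydrogenase for very long chains, rose to 206 and 184 CPM in DSF, against 65.0, 61.5 and 69.5 CPM in con (log2 fold change 1.58 ± 0.07, adjusted p = 1.13e-25). Acaa1b, a peroxisomal thiolase, rose to 35.6 and 35.3 CPM in DSF, against 0.206, 0.623 and 1.15 CPM in con (log2 fold change 5.75 ± 0.25, adjusted p = 2.78e-27). Pdk4, which shuts pyruvate out of oxidation, had 37.3 and 28.9 CPM in DSF, against 6.81, 8.52 and 8.52 CPM in con (log2 fold change 2.06 ± 0.15, adjusted p = 1.95e-17). Pdk4 and Cd36 are also made by heart muscle, whose markers differed between the groups as given above. In the fatty acid synthesis list 3 of 9 rose and 4 fell (4 and 3 with library totals alone), and Fasn, fatty acid synthase, had 384 and 342 CPM in DSF, against 386, 367 and 444 CPM in con (log2 fold change -0.13 ± 0.07, adjusted p = 0.0656). Fasn passed, as lower in DSF, without con replicate 2 (log2 fold change -0.19, adjusted p = 0.00728), without DSF library S2 (-0.23, adjusted p = 0.0184) and with the size factors of DESeq2 (adjusted p = 0.0486), and was at -0.05 without con replicate 3 (adjusted p = 0.386).

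Defence genes moved in both directions. All 8 tested Paneth cell genes rose (median 2.11): the lysozyme Lyz1 had 1255 and 1218 CPM in DSF, against 297, 266 and 308 CPM in con (log2 fold change 2.09 ± 0.06, adjusted p = 3.17e-37) and the lectin Itln1 had 118 and 117 CPM in DSF, against 11.8, 12.7 and 22.6 CPM in con (log2 fold change 2.93 ± 0.11, adjusted p = 2.59e-29). Defensins such as Defa24 (2.85 ± 0.11, adjusted p = 2.56e-29) form a family of near-identical copies and are uncertain. Of 18 mucosal defence genes 9 rose and 6 fell. Reg3g and Reg3b, antibacterial lectins, both rose. Reg3g had 780.0 and 739 CPM in DSF, against 320.4, 327 and 347 CPM in con (log2 fold change 1.20 ± 0.06, adjusted p = 1.10e-25). Reg3b had 669 and 592 CPM in DSF, against 322, 323 and 322 CPM in con (log2 fold change 0.97 ± 0.06, adjusted p = 1.73e-21). Duox2, an oxidase that releases hydrogen peroxide, fell to 41.1 and 44.2 CPM in DSF, against 281, 249.5 and 300.0 CPM in con (log2 fold change -2.70 ± 0.09, adjusted p = 1.62e-32). Nlrp6, an inflammasome sensor, fell to 656 and 650.2 CPM in DSF, against 1318, 1357 and 1547 CPM in con (log2 fold change -1.11 ± 0.06, adjusted p = 3.01e-23). Pigr, which carries immunoglobulin A across the cell, had 4145 and 4034 CPM in DSF, against 3098, 3174 and 3007 CPM in con (log2 fold change 0.40 ± 0.04, adjusted p = 1.74e-11).

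Antigen presentation by MHC class II rose in 6 of 7 genes. Cd74, the invariant chain, had 143 and 143 CPM in DSF, against 42.3, 33.0 and 37.5 CPM in con (log2 fold change 1.93 ± 0.08, adjusted p = 3.13e-27). H2-Ab1 had 42.9 and 35.1 CPM in DSF, against 7.63, 8.10 and 5.76 CPM in con (log2 fold change 2.43 ± 0.16, adjusted p = 2.04e-19). Ciita, the transactivator of the class, had 17.5 and 16.7 CPM in DSF, against 18.4, 13.9 and 18.2 CPM in con (log2 fold change 0.03 ± 0.15, adjusted p = 0.866). Class II genes are also made by leukocytes, whose markers were higher in DSF. Of 12 class I genes 8 rose and 4 fell, with B2m, the shared light chain, at 357 and 349 CPM in DSF, against 151, 143 and 169 CPM in con and Tapbp, which loads peptides, at 462 and 441 CPM in DSF, against 581, 589.9 and 682 CPM in con.

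Interferon-stimulated genes were mostly lower. Of 42 tested members 29 fell and 5 rose (median -0.66). Oas2 and Oasl2, of the antiviral oligoadenylate synthetase family, fell. Oas2 had 17.2 and 21.9 CPM in DSF, against 132, 137 and 159 CPM in con (log2 fold change -2.87 ± 0.11, adjusted p = 3.84e-29). Oasl2 had 171 and 184 CPM in DSF, against 622, 642 and 688 CPM in con (log2 fold change -1.88 ± 0.06, adjusted p = 8.62e-32). Irgm1, a GTPase against intracellular microbes, fell to 99.2 and 96.9 CPM in DSF, against 351, 354 and 336 CPM in con (log2 fold change -1.82 ± 0.07, adjusted p = 7.44e-30). Irf7, the factor that amplifies interferon transcription, fell to 226 and 221 CPM in DSF, against 466, 461 and 522 CPM in con (log2 fold change -1.11 ± 0.06, adjusted p = 3.72e-22). Ifi35 rose, with 99.6 and 103 CPM in DSF, against 67.1, 67.3 and 70.2 CPM in con (log2 fold change 0.57 ± 0.08, adjusted p = 5.61e-09). Members of the Oas, Ifit and Gbp families have close paralogs. The interferon-stimulated response element, searched on both strands as GAAA, any 2 bases and GAAA again, in RefSeq promoters of GRCm38.p6 (250 bases before to 50 after the start of transcription), was found in 21 of 33 members with a promoter in that table (63.6%) and in 421 of 11072 tested genes with one (3.8%). Of the 21 with the element, 13 fell and 3 rose in DSF, and 9 of the 12 without it fell. The 250 bases before the start of Irgm1 (chr11:48871421-48871670, minus strand), Oas3 (chr5:120777660-120777909, minus strand) and Igtp (chr11:58199306-58199555, plus strand) are shown, 5′ to 3′, because these 3 had the smallest p among members that hold the element there. Capitals mark its bases.
Irgm1: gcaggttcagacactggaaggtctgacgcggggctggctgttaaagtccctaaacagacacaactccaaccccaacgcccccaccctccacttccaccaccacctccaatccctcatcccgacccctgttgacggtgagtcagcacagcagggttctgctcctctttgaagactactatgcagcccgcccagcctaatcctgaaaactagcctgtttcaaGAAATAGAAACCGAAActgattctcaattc
Oas3: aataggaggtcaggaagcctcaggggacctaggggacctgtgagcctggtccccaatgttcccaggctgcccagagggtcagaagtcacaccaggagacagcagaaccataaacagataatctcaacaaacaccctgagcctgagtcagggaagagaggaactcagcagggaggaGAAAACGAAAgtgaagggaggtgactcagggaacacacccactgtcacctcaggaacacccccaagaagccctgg
Igtp: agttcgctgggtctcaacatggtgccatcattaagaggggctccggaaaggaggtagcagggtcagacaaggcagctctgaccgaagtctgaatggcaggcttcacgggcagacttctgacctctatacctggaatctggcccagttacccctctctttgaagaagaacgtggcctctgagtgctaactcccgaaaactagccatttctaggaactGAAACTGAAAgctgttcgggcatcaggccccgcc
In Irgm1 a pair of overlapping matches begins 30 and 24 bases before the start, in Igtp the match begins 34 bases before it and in Oas3 75 bases before it. Oas3 had 46.1 and 45.6 CPM in DSF, against 153, 149.8 and 175 CPM in con (log2 fold change -1.79 ± 0.09, adjusted p = 1.70e-24). Igtp, another GTPase of the Irgm1 family, had 109 and 117 CPM in DSF, against 211, 209.7 and 238 CPM in con (log2 fold change -0.96 ± 0.07, adjusted p = 4.92e-18).

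Immediate early genes, which respond to stimuli within minutes, were lower in 16 of 22 tested members and higher in 4 (median -0.88). Egr1, a zinc finger factor, fell to 228 and 223 CPM in DSF, against 1120.2, 1099.6 and 1162 CPM in con (log2 fold change -2.32 ± 0.06, adjusted p = 8.46e-37). The AP-1 subunit Fosb fell to 214 and 227 CPM in DSF, against 646, 626 and 674 CPM in con (log2 fold change -1.55 ± 0.06, adjusted p = 9.15e-29). Fos, its relative, fell to 413 and 410.2 CPM in DSF, against 1016, 986 and 1112 CPM in con (log2 fold change -1.33 ± 0.06, adjusted p = 4.56e-27), and the stress factor Atf3 to 94.5 and 85.6 CPM in DSF, against 346, 311 and 318 CPM in con (log2 fold change -1.85 ± 0.07, adjusted p = 3.93e-30). For these 4 genes every DSF library lay below every con library, as for 33.8% of all tested genes. Jund went the other way, with 794 and 767 CPM in DSF, against 84.8, 178 and 126 CPM in con (log2 fold change 2.59 ± 0.10, adjusted p = 1.09e-29). Every con library lay below both DSF libraries, as for 40.2% of all tested genes. In the amino acid response list 7 of 12 fell, led by its factor Atf4 with 318 and 300.0 CPM in DSF, against 532, 512 and 569 CPM in con (log2 fold change -0.80 ± 0.06, adjusted p = 2.14e-17), and 3 rose.

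Stem cell genes of the crypt were mostly lower. Of 17 stem cell and Wnt target genes 13 fell and 1 rose. Olfm4, a crypt glycoprotein, had 1738 and 1707 CPM in DSF, against 2883, 2851 and 2704 CPM in con (log2 fold change -0.71 ± 0.05, adjusted p = 1.32e-18). Ephb2, a receptor that positions crypt cells, had 93.1 and 99.1 CPM in DSF, against 280.4, 287 and 329 CPM in con (log2 fold change -1.63 ± 0.07, adjusted p = 5.05e-27). Lgr5, the stem cell receptor for R-spondin, had 14.3 and 15.8 CPM in DSF, against 29.7, 29.1 and 28.3 CPM in con (log2 fold change -0.95 ± 0.14, adjusted p = 4.02e-08). Ascl2, a stem cell transcription factor, rose, with 17.5 and 19.5 CPM in DSF, against 2.89, 6.44 and 7.14 CPM in con (log2 fold change 1.77 ± 0.21, adjusted p = 1.08e-10). Proliferation genes were split, with 10 of 25 lower and 4 higher, but 6 lower and 9 higher with library totals alone. Mki67, the usual proliferation marker, had 291 and 265 CPM in DSF, against 297, 363 and 268 CPM in con (log2 fold change -0.15 ± 0.07, adjusted p = 0.0520). Its side of the threshold turned on single libraries: the log2 fold change was -0.25 without con replicate 3 (adjusted p = 0.000237) and -0.03 without con replicate 2 (adjusted p = 0.735). Mki67 also passed without con replicate 1 (adjusted p = 0.0381), without DSF library S2 (adjusted p = 0.0300), with the size factors of DESeq2 (adjusted p = 0.0355) and without a filter (adjusted p = 0.0437). Ccna2, cyclin A, fell to 115 and 116 CPM in DSF, against 201, 191 and 179 CPM in con. Top2a, a topoisomerase of dividing cells, rose to 71.0 and 68.4 CPM in DSF, against 31.2, 26.8 and 21.6 CPM in con (log2 fold change 1.39 ± 0.10, adjusted p = 2.12e-17).

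Of 13 intestinal transcription factors 10 fell and 2 rose: Hnf4a, a master regulator of enterocyte genes, fell to 1531 and 1486 CPM in DSF, against 3306, 3171 and 3694 CPM in con (log2 fold change -1.17 ± 0.05, adjusted p = 4.66e-26). Its paralog Hnf4g rose to 217 and 221 CPM in DSF, against 128, 144 and 105 CPM in con (log2 fold change 0.79 ± 0.08, adjusted p = 1.51e-13) and Maf rose to 254 and 244 CPM in DSF, against 88.7, 98.5 and 90.7 CPM in con (log2 fold change 1.43 ± 0.07, adjusted p = 6.41e-26). Of 15 junction genes 10 fell and 2 rose (7 and 5 with library totals alone), with the pore-forming claudin Cldn2 at 308 and 315 CPM in DSF, against 1049, 936 and 1156 CPM in con (log2 fold change -1.75 ± 0.07, adjusted p = 4.32e-30). Cldn1, a claudin abundant in skin, had 0.260 and 0 CPM in DSF, against 10.3, 9.77 and 10.4 CPM in con.

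Genes of other secretory lineages moved in both directions. Goblet cell genes rose in 5 of 12 and fell in 5, near the share of all genes (36.6% higher and 31.1% lower). Zg16, a mucus lectin, had 730.4 and 660.1 CPM in DSF, against 299, 295 and 356 CPM in con (log2 fold change 1.14 ± 0.06, adjusted p = 4.90e-23). Fcgbp, a mucus protein, fell to 4069.9 and 3878 CPM in DSF, against 7128, 6905 and 8107 CPM in con (log2 fold change -0.89 ± 0.05, adjusted p = 6.43e-22). Atoh1, the factor that commits cells to secretory fates, fell to 28.6 and 30.3 CPM in DSF, against 53.0, 53.2 and 60.1 CPM in con (log2 fold change -0.91 ± 0.11, adjusted p = 2.11e-10). Of 13 enteroendocrine genes 4 rose, 1 fell and 8 were not called, where 67.7% of all tested genes were called. Sct, secretin, had 43.2 and 34.4 CPM in DSF, against 12.8, 12.9 and 11.3 CPM in con (log2 fold change 1.65 ± 0.14, adjusted p = 7.74e-16). Cck, cholecystokinin, had 17.2 and 13.3 CPM in DSF, against 8.25, 4.78 and 7.14 CPM in con (log2 fold change 1.18 ± 0.20, adjusted p = 1.04e-06). Chgb, a granule protein, fell to 223 and 226 CPM in DSF, against 337, 349 and 332 CPM in con. Tuft cell genes rose in 5 of 9 and fell in 2, with Dclk1 at 14.2 and 14.1 CPM in DSF, against 5.16, 2.91 and 6.45 CPM in con (log2 fold change 1.56 ± 0.22, adjusted p = 1.23e-08).

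Housekeeping machinery differed too. Cytosolic ribosomal protein genes rose in 68 of 78 tested members and fell in 1 (median 0.76), and nuclear genes of the respiratory chain rose in 53 of 77 and fell in 6 (median 0.78). Rps2 had 2314 and 2224 CPM in DSF, against 632, 828 and 749.6 CPM in con (log2 fold change 1.62 ± 0.06, adjusted p = 5.63e-30). Atp5a1, a subunit of ATP synthase, had 1176 and 1103 CPM in DSF, against 547, 534 and 580.4 CPM in con (log2 fold change 1.04 ± 0.05, adjusted p = 2.04e-24). Among the 13 mitochondrially encoded genes 8 fell and 4 rose, with mt-Co1, a cytochrome oxidase subunit, at 57454 ± 2337 CPM in DSF, against 88803 ± 3291 CPM in con (SD, n = 2 and 3). Ribosomal protein genes have many processed pseudogenes, so their counts are uncertain. Glycolysis rose in 10 of 15 genes and fell in 3: Eno1, enolase, had 241 and 247 CPM in DSF, against 61.5, 61.1 and 57.8 CPM in con (log2 fold change 2.02 ± 0.07, adjusted p = 1.13e-31), Gapdh had 3609.9 and 3477 CPM in DSF, against 1434, 1315 and 1582 CPM in con, and Hk2, an inducible hexokinase, fell to 35.2 and 29.4 CPM in DSF, against 117, 98.3 and 121 CPM in con (log2 fold change -1.79 ± 0.10, adjusted p = 1.13e-21). Heat shock genes rose in 7 of 13 and fell in 4, and genes of the unfolded protein response rose in 7 of 15 and fell in 5. Of all tested genes 36.6% were higher and 31.1% lower. Within the unfolded protein list the chaperone Hsp90b1 rose to 189 and 187 CPM in DSF, against 51.4, 71.7 and 47.4 CPM in con, and the factor Xbp1 fell to 327 and 319 CPM in DSF, against 564, 575 and 687 CPM in con. Of 10 antioxidant genes under NRF2, 5 fell and 2 rose, with Gsr, glutathione reductase, at 123 and 126 CPM in DSF, against 365, 343 and 374 CPM in con (log2 fold change -1.53 ± 0.07, adjusted p = 6.33e-27). In the aryl hydrocarbon receptor list 3 of 7 rose and 2 fell, near the share of all genes. Its marker target Cyp1a1 had 48.1 and 47.9 CPM in DSF, against 10.9, 16.6 and 13.1 CPM in con (log2 fold change 1.82 ± 0.12, adjusted p = 3.55e-19).

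Core clock genes differed in 9 of 15 members, 5 higher and 4 lower, near the share of all genes. Cry1, a cryptochrome repressor, rose to 31.8 and 32.4 CPM in DSF, against 6.60, 9.97 and 8.06 CPM in con (log2 fold change 1.97 ± 0.15, adjusted p = 6.41e-17), and so did Cry2, to 17.0 and 19.9 CPM in DSF, against 14.6, 10.2 and 16.8 CPM in con (log2 fold change 0.42 ± 0.16, adjusted p = 0.0161), although without con replicate 2 (adjusted p = 0.196) or DSF library S3 (adjusted p = 0.183) that call was lost. Nr1d1, the gene of REV-ERB alpha, fell to 53.9 and 58.7 CPM in DSF, against 77.0, 84.2 and 90.9 CPM in con (log2 fold change -0.57 ± 0.09, adjusted p = 1.23e-07). Per2, a period repressor, had 35.1 and 37.0 CPM in DSF, against 34.3, 40.3 and 37.3 CPM in con, with overlapping libraries (log2 fold change -0.05 ± 0.11, adjusted p = 0.702). Per1 had 18.6 and 19.0 CPM in DSF, against 21.7, 23.1 and 21.4 CPM in con (log2 fold change -0.23 ± 0.14, adjusted p = 0.130). Arntl, the gene of BMAL1, had 28.9 and 30.7 CPM in DSF, against 30.5, 33.9 and 33.8 CPM in con (log2 fold change -0.14 ± 0.11, adjusted p = 0.293). Its partner Clock rose to 94.9 and 91.2 CPM in DSF, against 69.9, 67.5 and 68.8 CPM in con (log2 fold change 0.44 ± 0.08, adjusted p = 1.93e-06).

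Of 7 clock output genes 2 fell and none rose: Nfil3, a repressor that competes with DBP, fell to 58.6 and 60.5 CPM in DSF, against 122, 126 and 131 CPM in con (log2 fold change -1.08 ± 0.08, adjusted p = 2.14e-17). Usp2, a ubiquitin protease, fell to 53.4 and 58.1 CPM in DSF, against 67.5, 58.6 and 74.8 CPM in con. The Usp2 call was lost without con replicate 3 (adjusted p = 0.0946), with only the groups compared (adjusted p = 0.0724) and with library totals alone, where 1 output gene rose and 1 fell. Its log2 fold change was -0.26 with all libraries and -0.21 without DSF library S2. Dbp had 8.19 and 8.04 CPM in DSF, against 6.60, 8.10 and 10.6 CPM in con (log2 fold change -0.04 ± 0.22, adjusted p = 0.863). Tef, of the same family, had 36.4 and 36.5 CPM in DSF, against 38.0, 30.8 and 36.1 CPM in con (log2 fold change 0.06 ± 0.11, adjusted p = 0.620). The E-box CACGTG, which CLOCK and BMAL1 bind, was found on either strand in the promoters of 4 of 12 core clock genes (33.3%), 1 of 6 output genes (16.7%) and 1244 of 11072 tested genes (11.2%). Among 16 genes of glucocorticoid and fasting responses 5 rose and 6 fell, near the share of all genes (7 and 4 with library totals alone). Sgk1, a kinase that glucocorticoids induce, had 32.6 and 35.2 CPM in DSF, against 15.9, 13.3 and 13.1 CPM in con (log2 fold change 1.26 ± 0.13, adjusted p = 7.89e-13). Foxo1, a fasting factor that insulin holds back, fell to 74.7 and 75.9 CPM in DSF, against 125, 116 and 116 CPM in con (log2 fold change -0.66 ± 0.08, adjusted p = 5.04e-11).

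**Figure D4:**
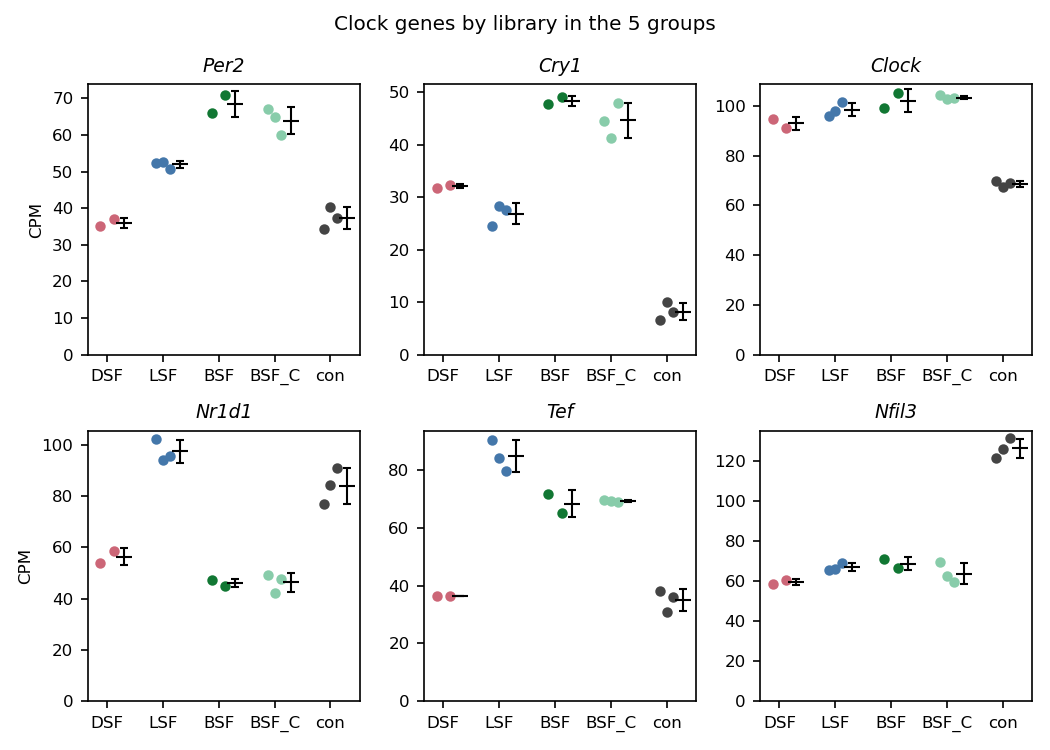
CPM of 6 clock genes in each library of DSF, LSF, BSF, BSF_C and con, with the mean and SD as a bar beside the points (n = 2, 3, 2, 3 and 3). Per2 and Tef in DSF lie at the level of con and below the 3 other groups, Cry1 and Clock in DSF lie above con, and Nfil3 in DSF lies below it.

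DSF also differed from LSF, in a contrast that leaves con out, although con was in the shared fit. In DSF 988 genes (6.91%) were higher and 1283 (8.97%) lower, 43.5% of calls being higher. With library totals alone 62.0% of 2664 calls were higher. Without the DSF library S2 the count was 1288 and without S3 it was 1430, with the remaining DSF library assumed to vary like those of other groups. Scaling by totals left the lists below that lean one way on the same side, apart from skin keratinocyte markers. These went from 2 lower and 0 higher to 0 lower and 1 higher. Absorption genes were lower in DSF than in LSF: 17 of 24 fat absorption genes, 12 of 14 sugar genes, 19 of 25 peptide and amino acid genes and 24 of 32 xenobiotic genes, with 0, 0, 1 and 1 higher. All 6 enterocyte markers were lower, with sums of 10660.0 to 10920.0 CPM in DSF and 16170.0 to 16440.0 CPM in LSF. They include Apoa1, Fabp1, Fabp2 and Sis, also treated above as absorption and sugar genes, so they are not separate evidence. Apoa4 averaged 9372 ± 133 CPM in DSF, against 14211 ± 205 CPM in LSF over 2 and 3 libraries, with the SD after ± (log2 fold change -0.60 ± 0.05, adjusted p = 1.51e-14). Akp3 averaged 296 ± 7.30 CPM in DSF, against 1237 ± 23.5 CPM in LSF (log2 fold change -2.06 ± 0.06, adjusted p = 4.17e-33). Cyp3a11 averaged 178 ± 14.9 CPM in DSF, against 722 ± 25.6 CPM in LSF (log2 fold change -2.02 ± 0.06, adjusted p = 4.53e-32). Large falls were in some genes of fasting metabolism and in another P450: Cyp2c29 averaged 3.08 ± 0.308 CPM in DSF, against 28.8 ± 0.242 CPM in LSF (log2 fold change -3.22 ± 0.21, adjusted p = 1.11e-18). Pck1 averaged 70.3 ± 1.15 CPM in DSF, against 489 ± 5.70 CPM in LSF (log2 fold change -2.80 ± 0.07, adjusted p = 5.76e-37). Sgk1 averaged 33.9 ± 1.82 CPM in DSF, against 137 ± 3.72 CPM in LSF (log2 fold change -2.02 ± 0.09, adjusted p = 5.69e-26). In liver, PCK1 serves glucose output in fasting, and PDK4 spares glucose. Pdk4 averaged 33.1 ± 5.96 CPM in DSF, against 108 ± 2.57 CPM in LSF (log2 fold change -1.70 ± 0.10, adjusted p = 9.65e-21). Fatty acid oxidation was lower in 16 of 28 genes and glucocorticoid and fasting genes in 8 of 16, with none higher in either. Cpt1a (log2 fold change -0.04 ± 0.06, adjusted p = 0.710) and Foxo1 (-0.15 ± 0.07, adjusted p = 0.175) were not called. Of 7 gluconeogenesis genes 5 were lower and 1 higher in DSF than in LSF. Pck2 was higher (log2 fold change 0.49 ± 0.09, adjusted p = 9.14e-05). Fkbp5, a glucocorticoid target, averaged 23.8 ± 0.978 CPM in DSF, against 60.2 ± 3.44 CPM in LSF (log2 fold change -1.34 ± 0.11, adjusted p = 6.44e-15).

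In the other direction, genes of cholesterol synthesis and proliferation were higher in DSF than in LSF. Cholesterol synthesis was higher in 16 of 24 genes, proliferation in 15 of 25, stem cell genes in 7 of 17 and MHC class II in 4 of 7, and none of these lists had a lower member. Sqle averaged 69.1 ± 9.03 CPM in DSF, against 46.3 ± 3.54 CPM in LSF (log2 fold change 0.58 ± 0.09, adjusted p = 2.51e-06). Fatty acid synthesis had 3 of 9 genes higher and 3 lower. Fasn averaged 363 ± 29.5 CPM in DSF, against 223 ± 12 CPM in LSF (log2 fold change 0.70 ± 0.07, adjusted p = 1.03e-12). Scd2, a fatty acid desaturase, averaged 542 ± 9.39 CPM in DSF, against 262 ± 8.14 CPM in LSF (log2 fold change 1.05 ± 0.06, adjusted p = 1.86e-21). Ccna2 averaged 116 ± 0.412 CPM in DSF, against 82.7 ± 0.628 CPM in LSF (log2 fold change 0.48 ± 0.07, adjusted p = 2.55e-07).

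Of 18 mucosal defence genes 8 were higher and 3 lower in DSF than in LSF. Duox2 averaged 42.6 ± 2.18 CPM in DSF, against 10.7 ± 1.34 CPM in LSF (log2 fold change 1.99 ± 0.12, adjusted p = 2.40e-19). Reg3g averaged 759 ± 29.2 CPM in DSF, against 296 ± 10.5 CPM in LSF (log2 fold change 1.36 ± 0.06, adjusted p = 3.97e-27). Cd74 averaged 143 ± 0.409 CPM in DSF, against 64.9 ± 1.92 CPM in LSF (log2 fold change 1.14 ± 0.07, adjusted p = 5.02e-19). All 3 were also named above against con, where Duox2 was lower in DSF. Cd14, a receptor for bacterial lipopolysaccharide, averaged 25.2 ± 2.20 CPM in DSF, against 12.4 ± 1.48 CPM in LSF (log2 fold change 1.02 ± 0.14, adjusted p = 4.59e-08). Gsdmc4, a gasdermin, averaged 15.2 ± 2.44 CPM in DSF, against 3.50 ± 1.27 CPM in LSF (log2 fold change 2.11 ± 0.22, adjusted p = 2.61e-11). Clock genes differed as well, with 6 of 15 core members lower in DSF and 1 higher: Per2 averaged 36.1 ± 1.38 CPM in DSF, against 52.0 ± 0.981 CPM in LSF (log2 fold change -0.53 ± 0.09, adjusted p = 2.14e-05). Nr1d1 averaged 56.3 ± 3.34 CPM in DSF, against 97.4 ± 4.35 CPM in LSF (log2 fold change -0.79 ± 0.08, adjusted p = 5.10e-11), and the output gene Tef averaged 36.5 ± 0.0858 CPM in DSF, against 84.9 ± 5.47 CPM in LSF (log2 fold change -1.22 ± 0.09, adjusted p = 2.80e-16). Of 43 tested markers of heart muscle, brain, leukocytes and lymphocytes, 0 passed edgeR's test between DSF and LSF, 4 had an unadjusted p under 0.05, and DESeq2 and limma-voom called 0. Skin and fibroblast lists each had 2 lower members. Red cell markers were lower in DSF in 2 of 3, with sums of 10.3 to 12.9 CPM in DSF and 26.5 to 30.4 CPM in LSF. Acta1, skeletal actin, averaged 20.4 ± 0.11 CPM in DSF, against 51.7 ± 1.04 CPM in LSF (log2 fold change -1.35 ± 0.10, adjusted p = 3.86e-16). The part of these transcripts in the difference from LSF was not tested.

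Against BSF, 895 genes (6.26%) were higher and 825 (5.77%) lower in DSF. The count of 1720 calls was 798 without the DSF library S2 and 919 without S3, and 920 and 876 without BSF replicate 1 and 2. Interferon-stimulated genes were higher in 28 of 42 members and immediate early genes in 18 of 22, with none lower in either list. Against LSF the interferon list had 6 members higher and 6 lower in DSF. The immediate early list had 1 higher and 7 lower there, where 6.91% of all genes were higher and 8.97% lower. Oasl2 averaged 177 ± 8.89 CPM in DSF, against 84.5 ± 4.25 CPM in BSF over 2 libraries each, with the SD after ± (log2 fold change 1.07 ± 0.08, adjusted p = 1.18e-16). Irf7 averaged 223 ± 3.05 CPM in DSF, against 116 ± 3.68 CPM in BSF (log2 fold change 0.94 ± 0.07, adjusted p = 2.56e-15). Both genes were lower in DSF than in con, as given above. Fosb averaged 221 ± 9.51 CPM in DSF, against 57.8 ± 5.23 CPM in BSF (log2 fold change 1.93 ± 0.08, adjusted p = 1.92e-27). Egr1 averaged 226 ± 3.58 CPM in DSF, against 106 ± 9.66 CPM in BSF (log2 fold change 1.09 ± 0.07, adjusted p = 3.82e-18). Fos averaged 411 ± 1.64 CPM in DSF, against 199 ± 7.75 CPM in BSF (log2 fold change 1.05 ± 0.06, adjusted p = 7.58e-19). These AP-1 and zinc finger genes were likewise lower in DSF than in con. Duox2 averaged 42.6 ± 2.18 CPM in DSF, against 13 ± 2.23 CPM in BSF (log2 fold change 1.70 ± 0.13, adjusted p = 5.36e-15). Reg3g averaged 759 ± 29.2 CPM in DSF, against 447 ± 0.419 CPM in BSF (log2 fold change 0.76 ± 0.06, adjusted p = 1.25e-14), so both were higher in DSF than in either LSF or BSF. Gstm3 averaged 619 ± 0.862 CPM in DSF, against 273 ± 7.12 CPM in BSF (log2 fold change 1.18 ± 0.06, adjusted p = 4.69e-22). The sterol pumps Abcg5 and Abcg8 were higher, by 0.36 ± 0.08 (adjusted p = 5.40e-04) and 0.48 ± 0.07 (adjusted p = 1.91e-06) on the log2 scale, Abcg5 with an adjusted p of 0.0893 without BSF replicate 1.

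Cyp1a1 headed the falls against BSF named by the same rule of size, averaging 48.0 ± 0.170 CPM in DSF, against 246 ± 14.7 CPM in BSF (log2 fold change -2.36 ± 0.08, adjusted p = 2.54e-29). Its product oxidizes polycyclic aromatic compounds. Aqp8, a water channel, averaged 8.69 ± 2.23 CPM in DSF, against 28.6 ± 1.02 CPM in BSF (log2 fold change -1.71 ± 0.17, adjusted p = 4.28e-11). Among clock genes Per2 averaged 36.1 ± 1.38 CPM in DSF, against 68.5 ± 3.46 CPM in BSF (log2 fold change -0.93 ± 0.10, adjusted p = 1.79e-10). Cry2 averaged 18.5 ± 2.04 CPM in DSF, against 34.0 ± 1.25 CPM in BSF (log2 fold change -0.88 ± 0.13, adjusted p = 1.99e-06).

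Markers of other tissues moved with the BSF contrast, and their part in it was not tested. Heart muscle markers were higher in DSF in 10 of 12 and summed to 591 CPM in both DSF libraries and 276 to 298 CPM in BSF. Lymphocyte markers were higher in 6 of 9, with sums of 341 to 361 CPM in DSF and 215 to 237 CPM in BSF, and leukocyte markers in 4 of 10. Fibroblast markers were higher in 8 of 10, with sums of 173 to 190.2 CPM in DSF and 88.3 to 95.2 CPM in BSF. Brain markers were lower in 8 of 12, with sums of 188 to 195 CPM in DSF and 264 to 279.8 CPM in BSF. Several of the largest differences between DSF and BSF were genes of striated muscle or neurons: Tcap, a cap protein of the sarcomere, averaged 49.4 ± 1.27 CPM in DSF, against 9.98 ± 0.726 CPM in BSF (log2 fold change 2.31 ± 0.15, adjusted p = 1.47e-18), and the skeletal actin gene Acta1 averaged 20.4 ± 0.11 CPM in DSF, against 94.9 ± 0.112 CPM in BSF (log2 fold change -2.22 ± 0.10, adjusted p = 7.90e-25). Ndn, of neurons, averaged 5.95 ± 0.959 CPM in DSF, against 22.4 ± 0.657 CPM in BSF (log2 fold change -1.91 ± 0.19, adjusted p = 4.28e-11). Against BSF_C, 857 genes (5.99%) were higher and 839 (5.87%) lower in DSF, 927 in all without DSF library S2 and 848 without S3. Markers of other tissues moved here too, and their part was not tested: heart muscle markers were higher in DSF than in BSF_C in 10 of 12, lymphocyte markers in 6 of 9, fibroblast markers in 4 of 10, leukocyte markers in 3 of 10 and melanocyte markers in 3 of 6. Brain markers were lower in 8 of 12. Interferon-stimulated genes were higher there in 32 of 42 members and immediate early genes in 17 of 22, with Fosb averaging 221 ± 9.51 CPM in DSF, against 63.2 ± 1.12 CPM in BSF_C (log2 fold change 1.80 ± 0.07, adjusted p = 6.57e-29). Duox2 averaged 42.6 ± 2.18 CPM in DSF, against 14.0 ± 1.48 CPM in BSF_C (log2 fold change 1.61 ± 0.12, adjusted p = 2.32e-16). Cyp1a1 averaged 48.0 ± 0.170 CPM in DSF, against 248 ± 11 CPM in BSF_C (log2 fold change -2.37 ± 0.08, adjusted p = 7.11e-31). BSF and BSF_C are both set against the same 2 DSF libraries.

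**Figure D5:**
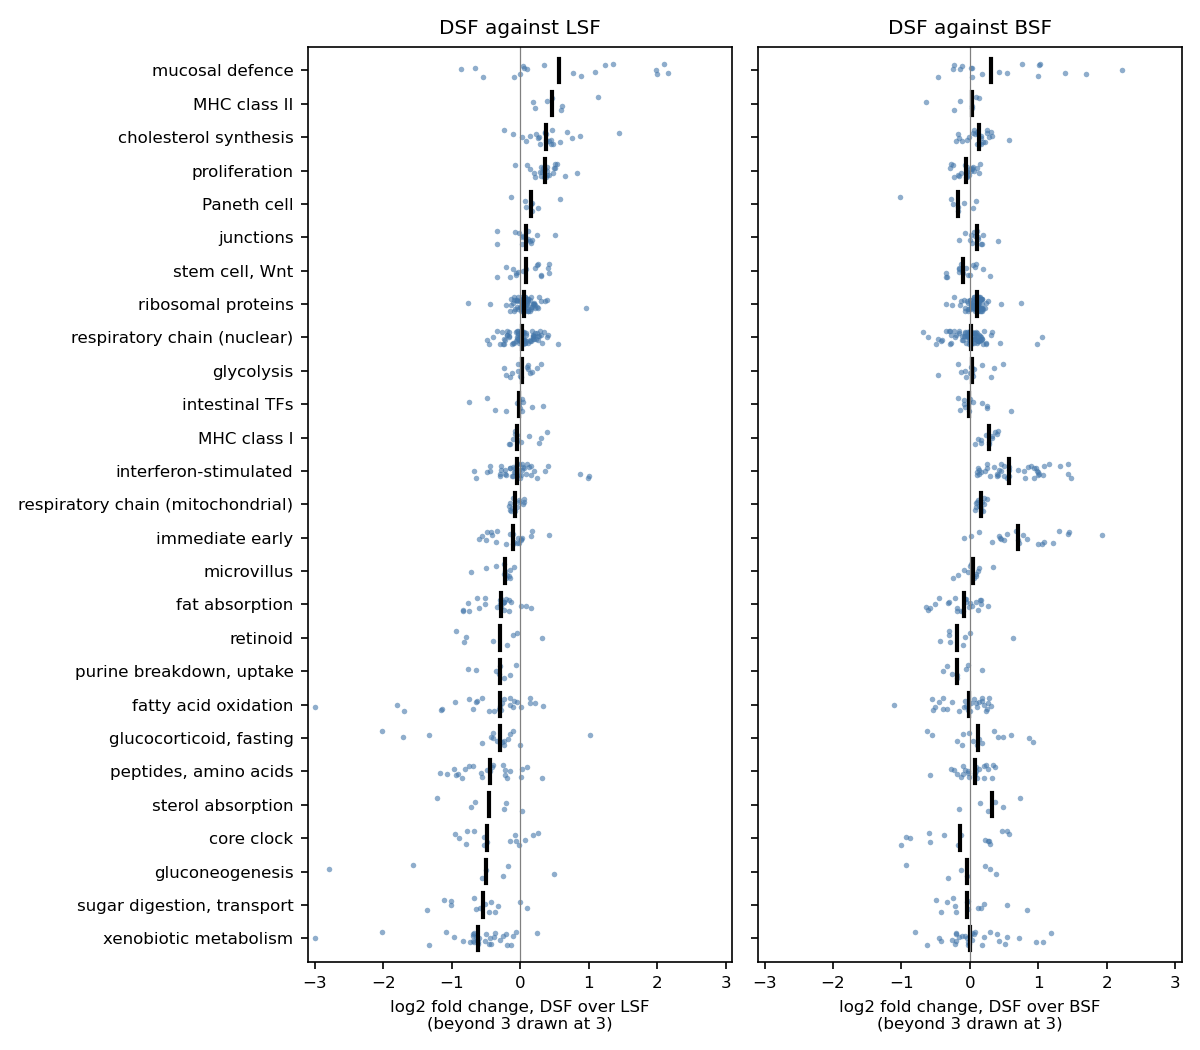
Log2 fold change of DSF over LSF (left) and DSF over BSF (right) for the tested members of 27 gene lists, one point a gene, with the list's median as a black bar; members without a count in a group are not drawn. Absorption and xenobiotic lists lie left of 0 against LSF, with a median of -0.61 for xenobiotic metabolism, and interferon-stimulated and immediate early lists lie right of 0 against BSF, with medians of 0.57 and 0.71.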

How the data were processed

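RNA of EpCAM-positive jejunal epithelial cells was sequenced, and the authors deposited a table of raw counts per gene, 1 column a library. The submitters' processing notes name STAR 2.7.2e, DESeq2 1.32.0, cutadapt 2.9 and FastQC 0.11.8, and the builds GRCm38 and mm10. Annotation, strand setting and the handling of reads mapping to several places: not given in the sources used here. Column names gave the groups. The 2 DSF columns carry the numbers 2 and 3 and the labels 1 and 2, so they were used as DSF libraries S2 and S3 without a replicate number.

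From the deposited counts, edgeR 4.0.16 (R 4.3.3) fitted all 13 libraries by group, with trimmed-mean scaling, filterByExpr (14300 genes kept, with 99.9% of counts), the quasi-likelihood test, two-sided, and Benjamini-Hochberg adjustment with a threshold of 0.05. The standard error is the size of the log2 fold change over the square root of F. Intervals of ratios are exact at 95% and cover counting error only. Floors are 3 counts over a group. Data were simulated with DSF and the other group at equal means. Only 100 genes were changed 1.5-fold and 100 changed 2-fold, up or down, all drawn from genes above a minimum expected count. For DSF against con on 14117 genes, 61% of 1.5-fold and 81% of 2-fold changes were recovered, with 4.05% of calls false. For DSF against LSF on 14153 genes, 62% and 83% were recovered, with 7.05% false. Far more genes differed in the real data, so these recovered and false shares need not hold for the calls reported here. Alternatives used DESeq2 1.42.0, limma 3.58.1, other scalings, filters and thinning, a block, and omission of each library. A pair of alternatives was chosen after seeing the data: leaving out the genes of other cell types, and leaving con out of the fit.

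Coordinates are from GENCODE M21 (GRCm38), in which 99.2% of the symbols were found. Members and lists were chosen with earlier results of these data known. Named were, in each list, members among the 5 with the highest mean CPM or the 5 with the smallest p, and the 10 largest rises and falls against con (6 against LSF and BSF) among called genes that did not overlap and averaged at least 20 CPM in the group that was higher, without those of other-tissue marker lists. Apoc3, Arntl, Ascl2, Cd36, Cry2, Dbp, Fkbp5, Gpat3, Gsdmc4, Ifi35, Igtp, Lgr5, Mgst1, Nr1i3, Per1, Plin3, Slc1a1, Slc1a5, Slc38a2 and Slc6a14 lie outside this rule and were chosen after their values were seen. Some genes that the rule names are not reported here.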

Additional observations from a re-analysis of the deposited data

How the results depend on the processing

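The count for DSF against con stayed within 1.5 times of 9677 under every other scaling, test, filter and fit tried, and was 8699 to 9453 without 1 library. It was 3744 at a log2 fold change of at least 1, where the counts against LSF, BSF and BSF_C were 203, 587 and 551. With 1 library left out, the counts were 1288 to 1866 against LSF, 798 to 920 against BSF and 848 to 1324 against BSF_C, where a lone DSF library is assumed to vary like other groups. Against BSF, DESeq2's Wald test gave 1109 and thinned libraries 1144. With con left out of the fit, an alternative chosen after seeing the data, the counts were 2947 against LSF, 2528 against BSF and 2356 against BSF_C. Without the genes of other cell types, also chosen after seeing the data, they were 9572 against con, 2272 against LSF, 1680 against BSF and 1665 against BSF_C. Whether column numbers pair the libraries was not settled. Deviations of DSF and con libraries from their group means correlated by -0.011 to 0.011. With 2 DSF libraries, the deviations of S2 and S3 mirror each other by construction, so these correlations cannot decide it. With the replicate block the counts were 9463 against con, 2060 against LSF, 1219 against BSF and 1426 against BSF_C. With library totals alone, the log2 change against con turned to 0.023 for Arntl, 0.11 for Dbp, 0.026 for Fasn, 7e-04 for Mki67, 0.15 for Nr1i3 (which passed, adjusted p = 0.0395) and 0.11 for Per2. With thinned libraries it turned to 0.062 for Nr1i3, -0.018 for Pck2 and 0.012 for Per2. For Nr1i3 it was 0.0044 without a filter and 0.034 with only the groups compared. With 1 library left out it ranged -0.095 to 0.10 for Ciita, -0.20 to 0.14 for Dbp, -0.055 to 0.029 for Nr1i3, -0.034 to 0.087 for Pck2, -0.11 to 0.012 for Per2 and -0.027 to 0.13 for Tef. As reported, with trimmed-mean scaling, those genes were not called in DSF against con. The cause was not tested. At 1 CPM a gene holds only a handful of counts in these libraries, so small differences there were not detectable at this depth.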
